A study of Mus musculus with 12 samples.

Results

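Foxo1, Foxo3, Klf3, Btg1, Btg2, Tob1, Tob2, Ypel3, Ypel5 and Pdcd4 are 10 genes whose products hold lymphocytes at rest or slow cell division. They were followed by all 24 bead-array probes annotated to their symbols, out of 45281 probes for 19057 named genes. Of the 24 probes, 20 exceeded the detection limit on at least 3 of the 12 arrays, and 9 of the 10 genes could be tested among 10050 genes. In cells carrying mutant E12, 0 of the 9 genes passed the test after 3 h of antigen receptor stimulation, and 0.229% of all genes tested passed it. In cells carrying wild-type E12, Ypel3, Pdcd4, Foxo1 and Ypel5 fell, by 5.09-fold for Ypel3 and 2.84-fold for Pdcd4, and the responses of Ypel3 and Pdcd4 differed between the forms of E12. That of Foxo1 also differed, but the call was lost without 9 of the 12 arrays taken singly. Btg1 and, by its brighter probes, Tob2 were lower with mutant than with wild-type E12, whether or not the receptor had been stimulated. Klf3 was above background with wild-type E12 alone.

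Resting B cells keep their division programme off with transcription factors and with proteins that limit messenger RNA and protein synthesis. FOXO1 and FOXO3 are forkhead transcription factors that act in the nucleus of resting cells. The kinase AKT, downstream of PI3 kinase and the antigen receptor, phosphorylates them and drives them into the cytoplasm. FOXO1 maintains genes of lymphocyte homing and receptor signalling such as Il7r and Klf2. KLF3 is a Krüppel-like factor that represses transcription with CtBP corepressors and takes part in the choice of splenic B cells between follicular and marginal zone fates. BTG1, BTG2, TOB1 and TOB2 form the BTG/TOB family, which recruits CCR4-NOT deadenylases to shorten the poly(A) tails of messenger RNAs. YPEL3 and YPEL5 are small zinc-binding yippee-like proteins. YPEL3 restrains growth of human cells, and YPEL5 associates with the CTLH ubiquitin ligase in human cells. PDCD4 binds the helicase eIF4A and so restrains translation, until S6 kinase and the ubiquitin ligase subunit β-TrCP remove it after mitogen signals. E12 is a splice product of the E2A gene (Tcf3), a basic helix-loop-helix factor that binds E-boxes.

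B cells came from the spleens of C57BL/6 mice aged 8 weeks. The mice were all heterozygous for an E2A deletion, and the cells had all been activated before the comparison with 200 ng/ml CD40L and 5 ng/ml IL-4 for 14 h. They were infected in repeated rounds of 12 h with retrovirus expressing E12 and GFP, in the presence of 200 ng/ml LPS, kept for 22 h more, and sorted for GFP. The 4 groups of 3 arrays were mutant E12 with anti-IgM, mutant E12 untreated, wild-type (wt) E12 with anti-IgM, and wt E12 untreated. The mutant is the calmodulin-resistant E12 named in the study's title, and anti-IgM was a goat F(ab')2 antibody at 2.5 μg/ml for 3 h. The cells thus carried retroviral E12 beside 1 normal E2A allele and were not resting when the antibody was added. No label says whether replicates came from separate mice or cultures, so p-values measure the spread between these samples. All levels below are log2(intensity + 50) after joint quantile normalization. In such bulk samples, fewer cells of a type and less RNA per cell cannot be told apart.

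The E2A gene itself, Tcf3, averaged 12.20 ± 0.82 with anti-IgM and 12.38 ± 0.52 untreated in mutant E12 cells, against 10.66 ± 0.45 and 10.71 ± 0.27 in wt E12 cells (SD, n = 3 each). It was thus higher with mutant E12 by 1.55 with anti-IgM and by 1.68 untreated (limma adjusted p = 0.00249 and 0.00153). Signal from the retrovirus and from the normal allele was not separated. The level of Tcf3 and the form of E12 cannot be told apart in comparisons between the forms. Between 16667 and 16676 probes exceeded the detection limit on each mutant E12 array, against 18110 to 18124 on each wt E12 array, and replicates correlated at r of 0.978 or more over the tested genes. The deposited values had been normalized apart for the forms of E12, so that step and the form cannot be told apart. Of 10 B cell markers, Cd79b, Ms4a1, Blk, Cd22 and Fcer2a were detected on 12 arrays, Cr2 on 6 and Pax5 on 0, and the others were not analysed here. Of 8 T cell markers, Thy1 was detected on 12 arrays with 170.4 to 841.6 intensity units, Cd3d on 2, and Cd3e, Cd3g, Cd4 and Cd8a on 0. The 3 tested of 5 dendritic cell markers, with Flt3 on 1 array and Itgax on 0, summed to 84 to 300.5 intensity units over all arrays, and Klf1, the tested one of 5 erythroid markers, with Hba-a1 and Alas2 on 0, to 3.47 to 19.7. On the first wt untreated array the summed level of 6 tested myeloid markers of 9 listed, with Csf1r detected on 2 arrays and Itgam and S100a9 on 0, was 2677 intensity units, against 833 and 877 on the other arrays of that group. Values of the 9 tested genes that rest on that array are given with and without it.

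Promoter sequences are shown for Ypel3, Pdcd4 and Btg1, since Ypel3 and Pdcd4 had the largest anti-IgM responses of the 9 genes and Btg1 the largest difference between the forms of E12. They are RefSeq windows of 300 bases around an annotated start on GRCm38.p6, read 5′ to 3′ along the gene. All 10 genes matched the promoter table by symbol, with 12 windows, among 32851 windows in all. Searched on both strands were the FOXO core GTAAACA and the E-boxes CAGCTG and CAGGTG. Capitals mark the matches, which do not overlap each other. The Ypel3 window is chr7:126776713-126777012 on the + strand, the upstream of the 2 Pdcd4 windows is chr19:53891981-53892280 on the + strand, and the Btg1 window is chr10:96616751-96617050 on the + strand.
Ypel3: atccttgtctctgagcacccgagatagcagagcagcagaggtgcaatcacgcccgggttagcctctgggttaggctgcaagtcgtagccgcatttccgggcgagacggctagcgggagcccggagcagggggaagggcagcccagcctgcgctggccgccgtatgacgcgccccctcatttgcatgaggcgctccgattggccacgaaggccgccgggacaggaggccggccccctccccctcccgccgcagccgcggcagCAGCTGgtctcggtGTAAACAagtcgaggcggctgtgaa
Pdcd4: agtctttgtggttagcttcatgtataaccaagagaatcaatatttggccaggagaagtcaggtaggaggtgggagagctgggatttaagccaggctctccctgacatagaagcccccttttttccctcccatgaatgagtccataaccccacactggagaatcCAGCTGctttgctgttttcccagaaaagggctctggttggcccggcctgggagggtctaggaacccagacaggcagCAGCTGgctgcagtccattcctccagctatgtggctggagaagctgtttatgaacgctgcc
Btg1: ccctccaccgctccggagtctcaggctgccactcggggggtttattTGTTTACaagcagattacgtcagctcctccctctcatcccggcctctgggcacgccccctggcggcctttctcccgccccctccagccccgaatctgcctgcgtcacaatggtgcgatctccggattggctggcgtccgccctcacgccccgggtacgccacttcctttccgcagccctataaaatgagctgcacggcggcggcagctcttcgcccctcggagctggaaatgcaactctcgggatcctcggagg
The FOXO core was found in 3.65% of all windows and in those of Ypel3 and Btg1. It begins at position 26 of Ypel3, counted from 1 at the annotated start, and at position -204 of Btg1, where it reads TGTTTAC on the gene strand. The E-box CAGCTG was found in 16.3% of all windows, at position 12 of Ypel3, at positions -87 and -11 of the upstream Pdcd4 window, and at positions -65 and 41 of 1 of the 2 Ypel5 windows. CAGGTG was found in 20.2% of all windows and in 0 of the 12. These matches describe letters in the windows and show no binding.

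The study asked how receptor stimulation changes expression with each form of E12. With mutant E12, limma called 0 of the 9 tested genes, against 0.229% of all 10050 genes (0.189% higher, 0.0398% lower), and 2 of them, Ypel3 and Ypel5, had an unadjusted p under 0.05. The median change of the 9 was -0.051 with mutant E12, and that of all genes was -0.0050. With wild-type E12, of the 9 tested genes, 4 fell and 0 rose, against 31.3% of all 10050 genes called in either direction (16.2% lower, 15.1% higher). The median change of the 9 was -0.26, and that of all genes was -0.020. Groups did not overlap in 5 of the 9 with the stimulated arrays lower, against 26.7% of all genes, and in 1, Tob2, with them higher, against 23.7%. The summed level of the 6 tested B cell markers was also lower, at 25833 to 28427 intensity units with anti-IgM against 35692 to 49667 untreated, and 4 of the 6 fell. The cytotoxic gene Prf1, the tested one of 6 NK and cytotoxic markers, had 1467 to 1977 units with anti-IgM against 3812 to 5835 untreated, with Klrb1c detected on 1 array and Ncr1, Klrd1 and Gzmb on 0. The 6 myeloid markers summed to 451 to 864 with anti-IgM and 833 to 2677 untreated. The part of these cell markers in the results was not tested.

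**Figure D1:**
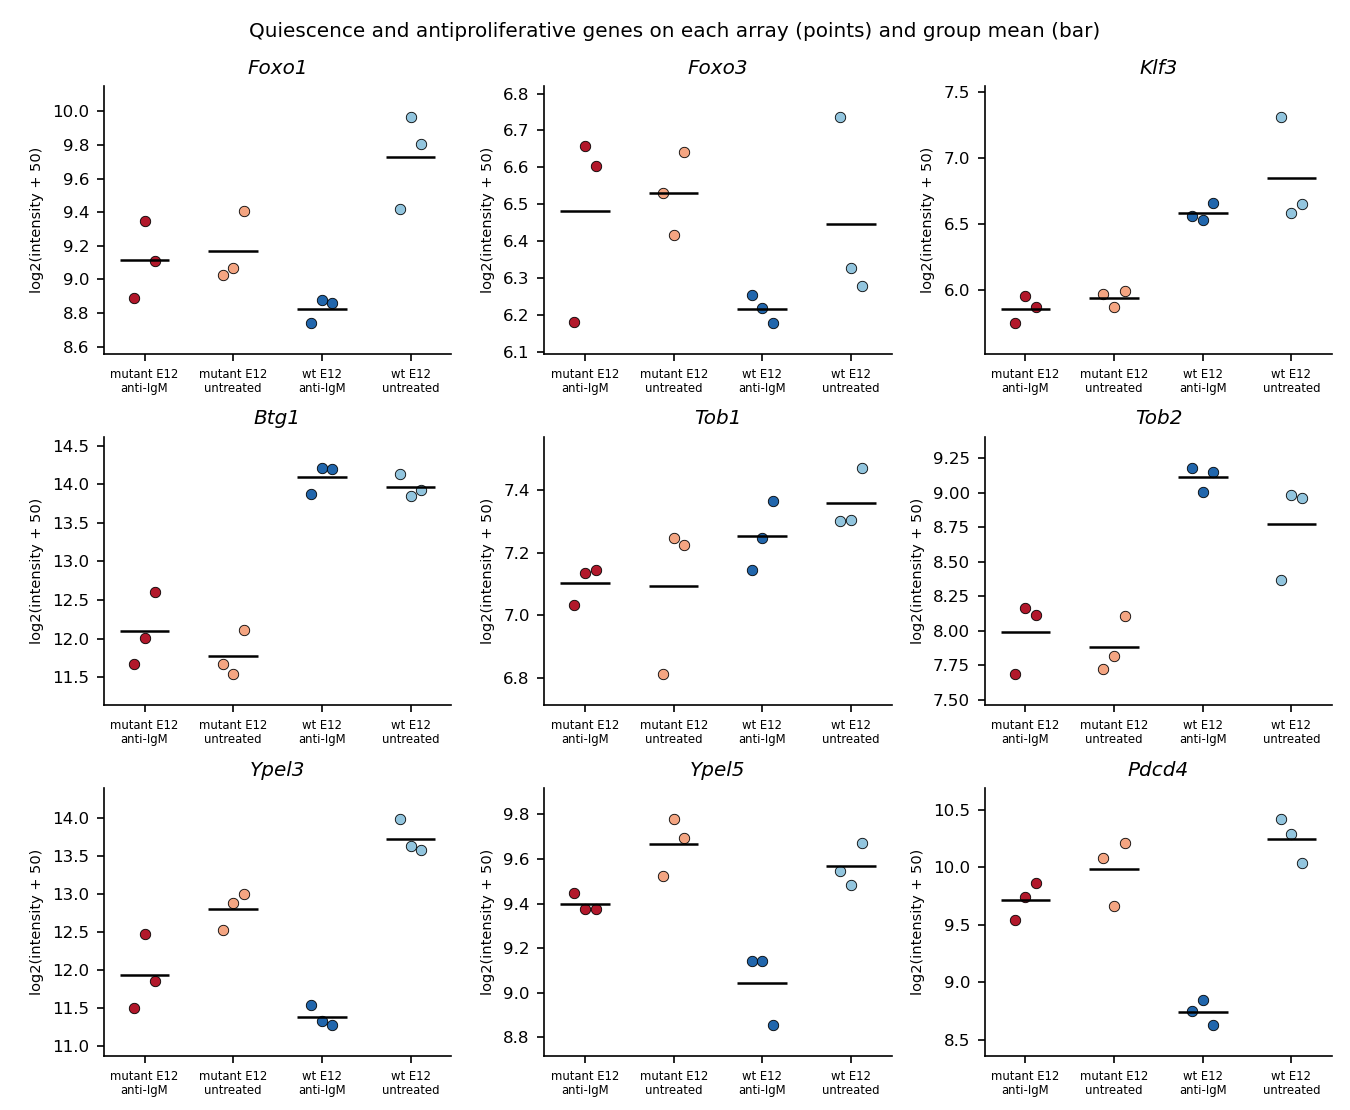
Level of each of the 9 tested genes on each of the 12 arrays, as log2(intensity + 50) after joint quantile normalization. Points are arrays, bars are means of 3 arrays, and each panel has its own axis. Ypel3, Pdcd4, Foxo1 and Ypel5 lie lower with anti-IgM than untreated on every wt E12 array, while Btg1, Tob2 and Klf3 lie lower on every mutant E12 array than on any wt E12 array.

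Ypel3, the growth-restraining yippee-like gene, had 11.50, 12.47 and 11.85 with anti-IgM in mutant E12 cells, against 12.52, 12.87 and 13.00 untreated. All 3 stimulated arrays were below the untreated ones, the second of them only narrowly. The change of -0.86 ± 0.21 (SE; 95% interval -1.31 to -0.41) was the 5th lowest of 10050 genes but did not pass (limma adjusted p = 0.128). Without the second stimulated mutant array it was -1.13, with adjusted p = 0.0228. With array weights it was called at -0.84, as was Btg1 at 0.69. Ypel3 was also called with a replicate block within each form (-0.86, adjusted p = 0.00421), though the replicate numbers may not mark pairs. In wt E12 cells Ypel3 had 11.54, 11.32 and 11.27 with anti-IgM, against 13.98, 13.62 and 13.57 untreated. The groups lay far apart, with every stimulated array more than 2 log2 units below every untreated one. The change was -2.35 ± 0.21 (adjusted p = 2.65e-06), the 6th lowest of 10050 genes.

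The response of Ypel3 was smaller with mutant than with wt E12, by 1.49 ± 0.30 in log2 change (interaction term, adjusted p = 0.00934). The difference of responses was called in 3 of the 9 genes, all positive, against 6.95% of all genes in either direction, 3.48% positive and 3.46% negative. Leaving out any 1 array, it ranged from 1.22 to 1.71 for Ypel3 and stayed called. Across the groups Ypel3 was highest in wt untreated cells, then mutant untreated, mutant stimulated and wt stimulated cells. The stimulated mutant and wt groups overlapped on 1 array, with a mean difference of 0.56 (adjusted p = 0.0436), a call lost without 7 of the 12 arrays taken singly. Pairs of groups that differ in both E12 and anti-IgM were not tested, here or for the other genes. A second, dim Ypel3 probe for the same transcript fell by 0.66 ± 0.14 in wt E12 cells (adjusted p = 0.00271 over 19715 probes), and its difference of responses was 0.39 (adjusted p = 0.303).

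Ypel5, the partner of the CTLH ligase, had 9.45, 9.38 and 9.38 with anti-IgM in mutant E12 cells, against 9.52, 9.78 and 9.69 untreated. The groups did not overlap, but the change of -0.27 ± 0.12 was not called (adjusted p = 0.531). In wt E12 cells it had 9.14, 9.14 and 8.85 with anti-IgM, against 9.54, 9.48 and 9.67 untreated. These groups did not overlap either, and the change was -0.52 ± 0.12 (adjusted p = 0.00454). Of the 9 genes Ypel3 and Ypel5 were the 2 with mutant E12 groups apart and lower, against 5.5% of all genes, and 0 were apart and higher, against 6.59%. The difference of responses for Ypel5 was 0.25 ± 0.17 (95% interval -0.11 to 0.62; adjusted p = 0.443). Its levels were highest in mutant and wt untreated cells, which overlapped, then in mutant stimulated and lastly in wt stimulated cells. The other Ypel5 probes changed by -1.23 ± 0.22 (adjusted p = 0.000847) and -0.29 ± 0.14 (adjusted p = 0.139) in wt E12 cells. Their differences of responses were 0.90 ± 0.31 (adjusted p = 0.115) and 0.017 ± 0.19 (adjusted p = 0.979). The brighter of these probes had 9.84 on the wt untreated array with the high myeloid markers, against 9.05 and 8.80 on the others of that group. Its values are given only with that array. Of 7 tested genes of the CTLH ligase, 0 were called in mutant E12 cells, where 0 had an unadjusted p under 0.05. With wt E12 1 fell, against 16.2% of all genes: the subunit gene Ranbp10, by 0.94 ± 0.24 (adjusted p = 0.00854).

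Pdcd4, the eIF4A inhibitor, had 9.54, 9.74 and 9.86 with anti-IgM in mutant E12 cells, against 10.08, 9.67 and 10.21 untreated. These groups overlapped, and the change of -0.27 ± 0.16 (95% interval -0.61 to 0.060) was not called (adjusted p = 0.683). In wt E12 cells it had 8.75, 8.85 and 8.63 with anti-IgM, against 10.42, 10.29 and 10.04 untreated. Every stimulated array was more than 1 log2 unit below every untreated one. The change was -1.51 ± 0.16 (adjusted p = 8.60e-06), the 83rd lowest of 10050 genes. The responses differed by 1.23 ± 0.22 (adjusted p = 0.00542), from 1.07 to 1.35 without any 1 array, called each time. Stimulated wt E12 cells were thus lowest, below stimulated mutant cells by 0.97 ± 0.16 (adjusted p = 0.000186), while mutant and wt untreated cells overlapped at the top.

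All 4 Pdcd4 probes, which share 1 transcript, changed in the same direction in wt E12 cells. The second brightest fell by 1.30 (adjusted p = 3.62e-05) and the third by 0.80 (adjusted p = 0.000707), and the dimmest changed by -0.34 (adjusted p = 0.152). Their differences of responses were 1.15 (adjusted p = 0.00988), 0.72 (adjusted p = 0.0463) and 0.25 (adjusted p = 0.635). Among 8 tested PDCD4 partners and turnover genes, 0 were called in mutant E12 cells, where 0 had an unadjusted p under 0.05. In wt E12 cells 2 rose and 1 fell, against 15.1% and 16.2% of all genes. Eif4a1, which encodes the helicase that PDCD4 binds, changed by 0.23 in mutant E12 cells and rose by 1.57 ± 0.13 in wt E12 cells (adjusted p = 1.45e-06), a difference of -1.34 ± 0.18 (adjusted p = 0.00122). Rptor, the mTORC1 scaffold gene, rose in wt E12 cells by 0.67 ± 0.15 (adjusted p = 0.0028), and Btrc, which encodes β-TrCP, fell by 0.44 ± 0.15 (adjusted p = 0.0365).

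**Figure D2:**
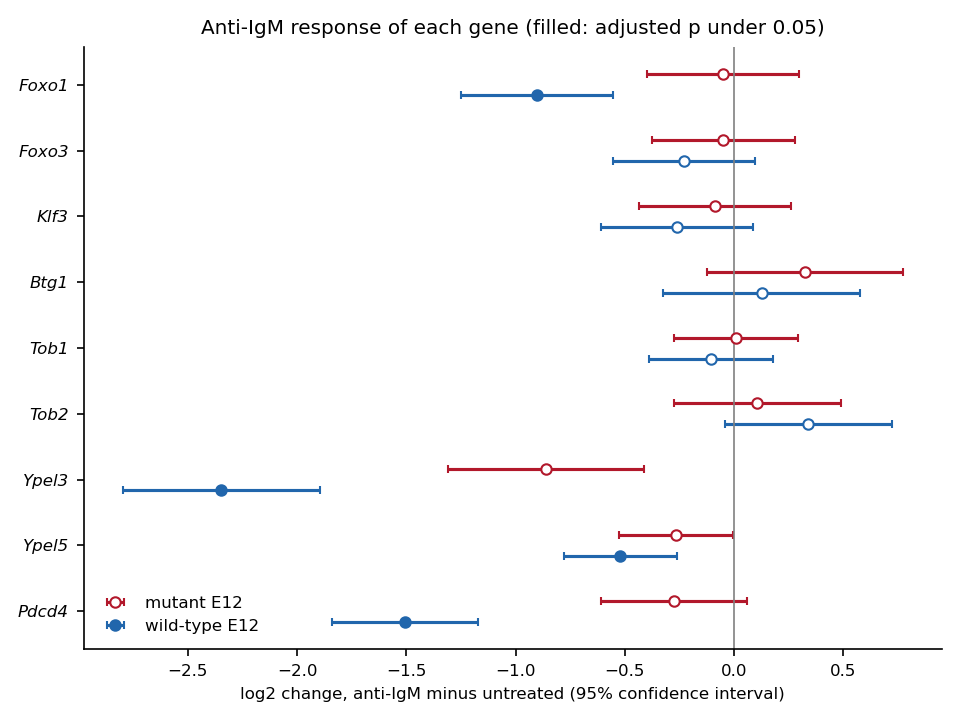
Log2 change of each gene after anti-IgM (x axis) with mutant E12 (red) and wild-type E12 (blue); bars are 95% confidence intervals from 3 arrays per group, and filled points passed adjusted p under 0.05. The 9 mutant E12 points are open; the 4 filled points, all wild type, are Ypel3 at -2.35, Pdcd4 at -1.51, Foxo1 at -0.90 and Ypel5 at -0.52.

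Foxo1, the forkhead factor gene, had 8.89, 9.35 and 9.11 with anti-IgM in mutant E12 cells, against 9.03, 9.07 and 9.41 untreated. These arrays were interleaved, with a change of -0.051 ± 0.16 (95% interval -0.40 to 0.30; adjusted p = 0.979). In wt E12 cells it had 8.74, 8.88 and 8.86 with anti-IgM, against 9.42, 9.97 and 9.80 untreated. The groups did not overlap, and the change was -0.90 ± 0.16 (adjusted p = 0.000756), or 1.87-fold lower. The responses differed by 0.85 ± 0.23 (adjusted p = 0.0380), between 0.73 and 1.01 without any 1 array, but the call was lost for 9 of the 12 arrays left out. It was also lost on the deposited values without the joint step (0.74, adjusted p = 0.0958), with a common median (0.75, adjusted p = 0.0862), with an offset of 16 (0.90, adjusted p = 0.0754) and with the mean of probes (0.82, adjusted p = 0.144). Foxo1 was highest in wt untreated cells, with mutant untreated, mutant stimulated and wt stimulated cells following closely. The last 2 differed by 0.29 ± 0.16 (adjusted p = 0.166). A second Foxo1 probe changed by -0.24 in mutant E12 cells and by -1.03 ± 0.30 in wt E12 cells (adjusted p = 0.0203), with a difference of 0.79 (adjusted p = 0.347).

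Foxo3, the second forkhead factor gene, was dim but detected on every array, with deposited intensities of 21.5 to 58.8 against limits of 12.9 on wt and 15.6 to 15.7 on mutant arrays. Its other 2 probes were detected on 0 arrays. It had 6.18, 6.66 and 6.60 with anti-IgM in mutant E12 cells, against 6.53, 6.42 and 6.64 untreated. In wt E12 cells it had 6.25, 6.22 and 6.18 with anti-IgM, against 6.74, 6.33 and 6.28 untreated. The highest of these, 6.74, came from the untreated array with the high myeloid markers. The wt change was -0.23 ± 0.15 (adjusted p = 0.282) with that array and -0.086 without it, called neither way. The part of the myeloid markers was not tested.

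Of 20 tested FOXO target genes, 0 were called in mutant E12 cells, 5 at an unadjusted p under 0.05, with a median change of -0.20. With wt E12 9 fell and 2 rose, against 16.2% and 15.1% of all genes, with a median of -0.35. There Klf2, a factor that keeps lymphocytes at rest and sets their homing, fell by 1.88 ± 0.14 (adjusted p = 7.79e-07). Txnip, which limits glucose uptake, fell by 1.77 ± 0.19 (adjusted p = 9.62e-06). Bcl6, the germinal centre repressor, fell by 1.51 ± 0.26 (adjusted p = 0.000584), and Insr, the insulin receptor gene, fell by 1.44 ± 0.27 (adjusted p = 0.00105). The 2 that rose were Il7r, by 0.91 ± 0.17 from a mean of 6.17 (adjusted p = 0.000972), and Sod2, by 0.44 ± 0.13 (adjusted p = 0.0150). The difference of responses was positive and called in 6 of the 20, against 3.48% of all genes. The 6 included Klf2 at 1.57 (adjusted p = 0.00079), Txnip at 1.37 (adjusted p = 0.00765) and Bcl6 at 1.47 (adjusted p = 0.0278). Insr, at 1.04, was not called (adjusted p = 0.127). Of 19 tested FOXO kinases and regulators, 0 were called in mutant E12 cells, where 0 had an unadjusted p under 0.05. In wt E12 cells 4 fell and 0 rose, against 16.2% and 15.1% of all genes. Those 4 were the 14-3-3 gene Ywhab (-0.93, adjusted p = 0.00497), the PI3 kinase regulatory subunit gene Pik3r1 (-0.75, adjusted p = 0.00292), the deubiquitinase gene Usp7 (-0.69, adjusted p = 0.00487) and the mTORC2 gene Rictor (-0.52, adjusted p = 0.0368).

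**Figure D3:**
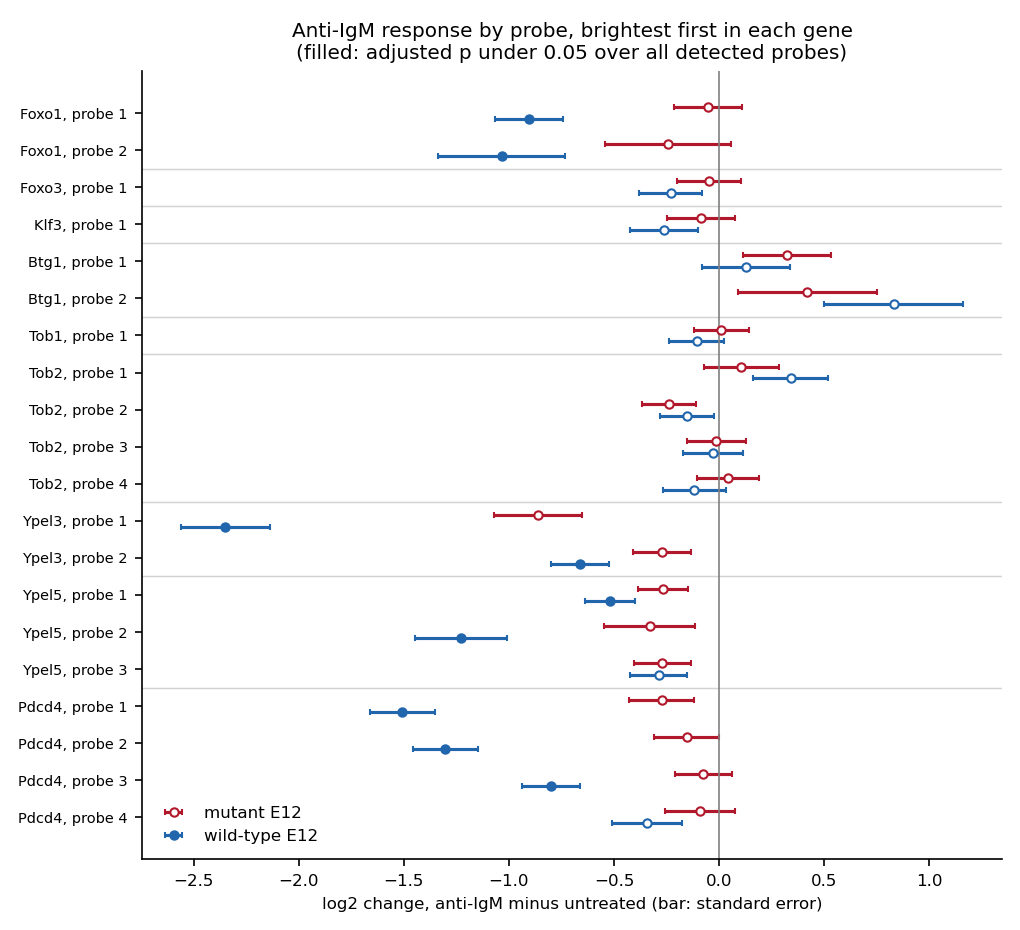
Log2 change after anti-IgM (x axis) for each of the 20 detected probes, brightest first within a gene, with mutant E12 (red) and wild-type E12 (blue); bars are standard errors and filled points passed adjusted p under 0.05 over 19715 probes. With mutant E12 0 of the 20 probes are filled; with wild-type E12 9 are, all to the left of 0, and they belong to Foxo1, Ypel3, Ypel5 and Pdcd4.

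Counted by probe, 0 of the 20 detected probes were called in mutant E12 cells, against 0.101% of all detected probes. With wt E12 9 fell and 0 rose, against 27% in either direction. For the difference of responses 5 were called positive and 0 negative, against 5.06% in either direction. Mutant minus wt was called in 9 probes with anti-IgM, 4 higher and 5 lower, against 40.1% of all detected probes in either direction. Untreated it was called in 9 probes, all lower, against 41.4% in either direction. The Klf3 probe, detected on wt arrays alone, was among the lower ones each time. Untreated, the lower ones also included a dim Tob2 probe, detected on 3 wt and 0 mutant untreated arrays. Probes of a gene share its transcript and are not separate evidence.

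Btg1, a deadenylase recruiter, was bright on every array and was not called with anti-IgM. It had 11.68, 12.01 and 12.60 with anti-IgM and 11.67, 11.54 and 12.11 untreated in mutant E12 cells. It had 13.87, 14.21 and 14.20 with anti-IgM and 14.13, 13.84 and 13.92 untreated in wt E12 cells. Every mutant array was more than 1 log2 unit below every wt array. The changes with anti-IgM were 0.32 ± 0.21 with mutant E12 (adjusted p = 0.751) and 0.13 ± 0.21 with wt E12 (adjusted p = 0.705). Mutant minus wt was -1.996 ± 0.21 with anti-IgM (adjusted p = 5.27e-06) and -2.19 ± 0.21 untreated (adjusted p = 2.81e-06), the 44th and 45th lowest of 10050 genes. On the deposited values without the joint step these were -1.12 and -1.24, still called. The second Btg1 probe gave -2.20 with anti-IgM and -1.79 untreated. Its own anti-IgM changes were 0.42 ± 0.33 with mutant E12 (adjusted p = 0.882) and 0.83 ± 0.33 with wt E12 (adjusted p = 0.0795).

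Mutant minus wt was called in 6 of the 9 genes with anti-IgM, 3 higher and 3 lower, among them Klf3, which could pass only through the wt arrays, against 43.5% of all genes, 21.3% higher and 22.2% lower. Untreated it was called in 5 of the 9, all lower, against 42.6% of all genes, 20.4% higher and 22.2% lower. Klf3 was again among them and, kept through the wt arrays alone, could only come out lower. Groups did not overlap in 3 of the 9 with mutant lower and 3 with mutant higher after anti-IgM, against 29.9% and 28.2% of all genes, and in 6 lower and 0 higher untreated, against 25.4% and 24%. Klf3 was among the lower genes each time. The split of calls moved with the scaling: 48.9% of calls with anti-IgM and 47.9% untreated were higher after the joint step, against 67.4% and 66.8% on the deposited values, where the median of all genes was 0.11 and 0.13 instead of -0.0053 and 0.0095. The 6 tested B cell markers summed to 16263 to 20491 with anti-IgM and 17946 to 21655 untreated in mutant E12 cells, against 25833 to 28427 and 35692 to 49667 in wt E12 cells. The 5 plasma cell markers, all tested and none at 0, summed to 13197 to 19053 with anti-IgM and 15077 to 19743 untreated in mutant E12 cells, against 8279 to 9316 and 9411 to 10615 in wt E12 cells. Of the 6 tested myeloid markers 0 were higher and 3 lower untreated and 1 was higher and 3 lower with anti-IgM, with sums of 410 to 686 with anti-IgM and 425 to 629 untreated in mutant E12 cells, against 451 to 864 and 833 to 2677 in wt E12 cells. Prf1 had 714 to 2588 units with anti-IgM and 683 to 1501 untreated in mutant E12 cells, against 1467 to 1977 and 3812 to 5835 in wt E12 cells, and was called untreated (-2.13, adjusted p = 0.000454). Thy1 had 441 to 724 units with anti-IgM and 385 to 842 untreated in mutant E12 cells, against 170.4 to 269 and 185 to 450.2 in wt E12 cells, and was called with anti-IgM (1.18, adjusted p = 0.00509). Of the 3 dendritic cell markers 1 was higher and 1 lower in both comparisons. Of 11 immediate early and handling genes, 6 were higher and 1 lower untreated and 2 higher and 2 lower with anti-IgM. The part of these markers and genes in the differences between forms was not tested.

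**Figure D4:**
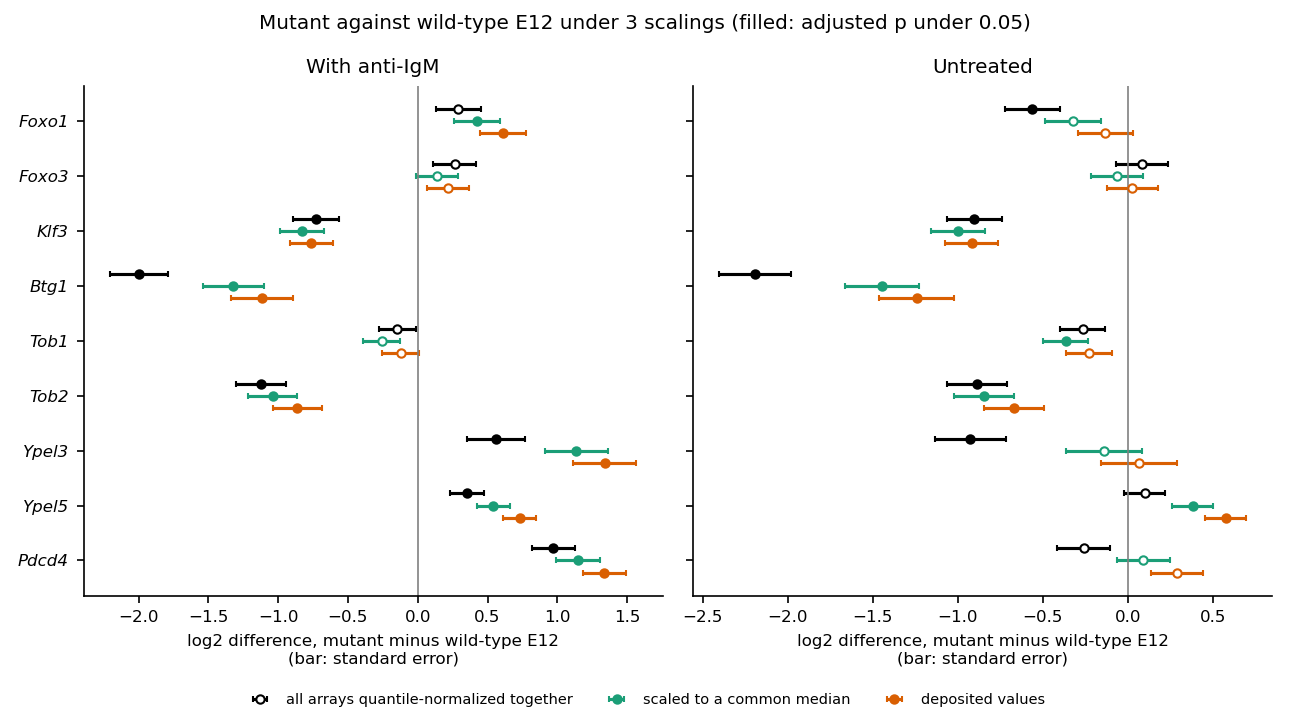
Log2 difference of mutant minus wild-type E12 (x axes) for each gene, with anti-IgM (left) and untreated (right), under 3 scalings; bars are standard errors and filled points passed adjusted p under 0.05. Btg1, Tob2 and Klf3 (at background with mutant E12) stay below 0 and filled in both panels under all 3 scalings, whereas untreated Ypel3 is at -0.93 after the joint step and 0.065 on the deposited values, and untreated Pdcd4 at -0.26 and 0.29.

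Tob2, which binds both deadenylases and poly(A)-binding protein, had 7.68, 8.17 and 8.11 with anti-IgM and 7.72, 7.82 and 8.11 untreated in mutant E12 cells. It had 9.18, 9.001 and 9.15 with anti-IgM and 8.37, 8.98 and 8.96 untreated in wt E12 cells. All 6 mutant arrays lay below all 6 wt arrays. Mutant minus wt was -1.12 ± 0.18 with anti-IgM (adjusted p = 0.000175) and -0.89 ± 0.18 untreated (adjusted p = 0.00116). The anti-IgM changes were 0.11 with mutant E12 (adjusted p = 0.953) and 0.34 with wt E12 (adjusted p = 0.170), and with wt E12 it was 0.14 without the first wt untreated array. Of the other 3 detected Tob2 probes, untreated differences were -0.54 (adjusted p = 0.00422), 0.019 (adjusted p = 0.928) and -0.40 (adjusted p = 0.0456). With anti-IgM they were -0.62 (adjusted p = 0.0016), 0.036 (adjusted p = 0.861) and -0.24 (adjusted p = 0.228). The last 2 probes were detected on 3 and 6 arrays. Those 6 were 3 wt untreated, 2 wt stimulated, 0 mutant untreated and 1 mutant stimulated.

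Tob1, its close relative, had 7.03, 7.14 and 7.14 with anti-IgM and 6.81, 7.25 and 7.22 untreated in mutant E12 cells, against 7.14, 7.25 and 7.37 with anti-IgM and 7.30, 7.30 and 7.47 untreated in wt E12 cells. The 4 groups spanned 0.26 in their means and no comparison was called, though with a common median the untreated difference, -0.26 after the joint step, was -0.37 (adjusted p = 0.0354). The intervals of the anti-IgM change ran from -0.27 to 0.29 with mutant E12 and from -0.39 to 0.18 with wt E12. Btg2, the immediate early member of the family, was above the detection limit on 0 of the 12 arrays by its single probe and was not tested. Its measured means were 5.71 with anti-IgM and 5.89 untreated in mutant E12 cells, against 5.52 and 5.58 in wt E12 cells, all at background.

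BTG and TOB proteins act with the CCR4-NOT and PAN2-PAN3 deadenylases and poly(A)-binding proteins. Among 15 tested genes of these, 0 were called in mutant E12 cells, where 0 had an unadjusted p under 0.05. In wt E12 cells 3 rose and 2 fell, against 15.1% and 16.2% of all genes. The deadenylase subunit gene Pan2 fell by 1.05 ± 0.21 (adjusted p = 0.00156). The poly(A)-binding protein genes Pabpc4 and Pabpn1 rose by 0.63 and 0.57 (adjusted p = 0.0424 and 0.031), and the deadenylase gene Cnot6 rose by 0.56 (adjusted p = 0.0341). The untreated wt mean of Cnot6 lay in the range of the undetected Btg2, so its change starts from background levels. Its stimulated and untreated wt groups overlapped. Mutant minus wt was lower in 8 and higher in 1 of the 15 with anti-IgM, against 22.2% and 21.3% of all genes. Untreated it was lower in 7 and higher in 1, against 22.2% and 20.4%.

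Klf3 was detected on all 6 wt E12 arrays and on 0 of the 6 mutant E12 arrays, so it passed the filter through the wt arrays alone. It had 5.75, 5.96 and 5.87 with anti-IgM and 5.97, 5.87 and 5.99 untreated in mutant E12 cells. It had 6.57, 6.53 and 6.66 with anti-IgM and 7.31, 6.59 and 6.65 untreated in wt E12 cells. Against the detection floor of the mutant arrays, Klf3 was at least 1.46-fold higher in wt than in mutant cells with anti-IgM (means 5.86 in mutant and 6.59 in wt; adjusted p = 0.00228). Untreated it was at least 1.75-fold higher in wt cells (means 5.95 in mutant and 6.85 in wt; adjusted p = 0.000508). These p-values compare the means and do not test the bounds, and a call could only be lower with mutant E12. The highest value, 7.31, came from the array with the high myeloid markers, without which the untreated bound was 1.49-fold. The wt change with anti-IgM was -0.26 ± 0.16 (adjusted p = 0.250) with that array and -0.031 without it. Of 2 tested KLF3 corepressor genes, Rcor1 was lower in mutant than in wt E12 cells by 1.06 with anti-IgM (adjusted p = 0.00896) and by 1.18 untreated (adjusted p = 0.00476), and Hdac2 was at -0.47 (adjusted p = 0.0623) and -0.42 (adjusted p = 0.0973). With anti-IgM, Hdac2 changed by 0.24 (adjusted p = 0.382) and Rcor1 by 0.030 (adjusted p = 0.952) in wt E12 cells.

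The genes that responded to anti-IgM in wt E12 cells differed between forms in a way that depended on the scaling. With anti-IgM, Pdcd4 was higher in mutant than in wt E12 cells by 0.97, Ypel3 by 0.56 and Ypel5 by 0.35 ± 0.12 (adjusted p = 0.0285), all positive and called under both other scalings. The Ypel5 call was lost with the mean of probes (0.18, adjusted p = 0.267), with an offset of 16 (0.38, adjusted p = 0.0591) and without 4 of the 12 arrays taken singly. Besides the left-out arrays above, the Ypel3 call was lost with either other offset, with no filter, with the block across all groups and with its own arrays alone (0.54 to 0.57, adjusted p = 0.0510 to 0.0667). Untreated, Ypel3 was lower in mutant cells by the joint scaling (-0.93 ± 0.21, adjusted p = 0.00276), but 0.065 on the deposited values (adjusted p = 0.834) and -0.14 with a common median (adjusted p = 0.640). Untreated Foxo1 was -0.56 ± 0.16 (adjusted p = 0.0123), against -0.13 and -0.32 under those scalings, neither called. Untreated Pdcd4 was -0.26 (adjusted p = 0.195) and turned to 0.29 and 0.091, also not called, but was called lower with the mean of probes (-0.39, adjusted p = 0.0245) and with array weights (-0.44, adjusted p = 0.00453). Untreated Ypel5 was 0.099 (adjusted p = 0.536), against 0.57 (adjusted p = 0.00116) and 0.38 (adjusted p = 0.0174). Foxo1 with anti-IgM was 0.29 and not called, against 0.61 (adjusted p = 0.00702) and 0.43 (adjusted p = 0.0457). The third Pdcd4 probe differed, with -0.78 untreated (adjusted p = 0.000484) and -0.059 with anti-IgM. With anti-IgM the second brightest Pdcd4 probe gave 0.91 (adjusted p = 0.000362) and the dimmest -0.019 (adjusted p = 0.938). There the second Ypel3 probe gave 0.18 (adjusted p = 0.322), and the other Ypel5 probes gave 0.38 (adjusted p = 0.180) and -0.21 (adjusted p = 0.239). The difference of responses kept its sign and call for Ypel3 and Pdcd4 under all scalings.

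Of 11 tested family relatives of the 10 genes, 0 were called with anti-IgM in mutant E12 cells, 2 at an unadjusted p under 0.05. In wt E12 cells 3 fell and 3 rose, against 16.2% and 15.1% of all genes. Beside Klf2, the factor Klf13 fell by 1.00 ± 0.19 (adjusted p = 0.00101), and Btg3 and Klf16 rose by 0.70 and 0.65 (adjusted p = 0.000275 and 0.0053). Btg3 had an untreated wt mean of 5.69, in the range of the undetected Btg2, so its change starts from background levels. Of 21 tested other quiescence genes, 0 were called in mutant E12 cells, 6 at an unadjusted p under 0.05. In wt E12 cells 8 fell and 2 rose, against the same 16.2% and 15.1%. Mxd4, a MAX partner that opposes MYC, changed by -0.79 in mutant E12 cells and fell by 2.45 ± 0.18 in wt E12 cells (adjusted p = 7.28e-07), a difference of 1.66 ± 0.26 (adjusted p = 0.0023). Cdkn2d, the p19 inhibitor of CDK4 and CDK6, fell in wt E12 cells by 1.28 ± 0.20 (adjusted p = 0.000271), with a difference of 1.18 (adjusted p = 0.0228). Slfn2, a gene needed for T cell quiescence, rose there by 1.35 ± 0.20 (adjusted p = 0.000165). The difference of responses was called in 4 of the 21, all positive, against 6.95% of all genes in either direction.

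**Figure D5:**
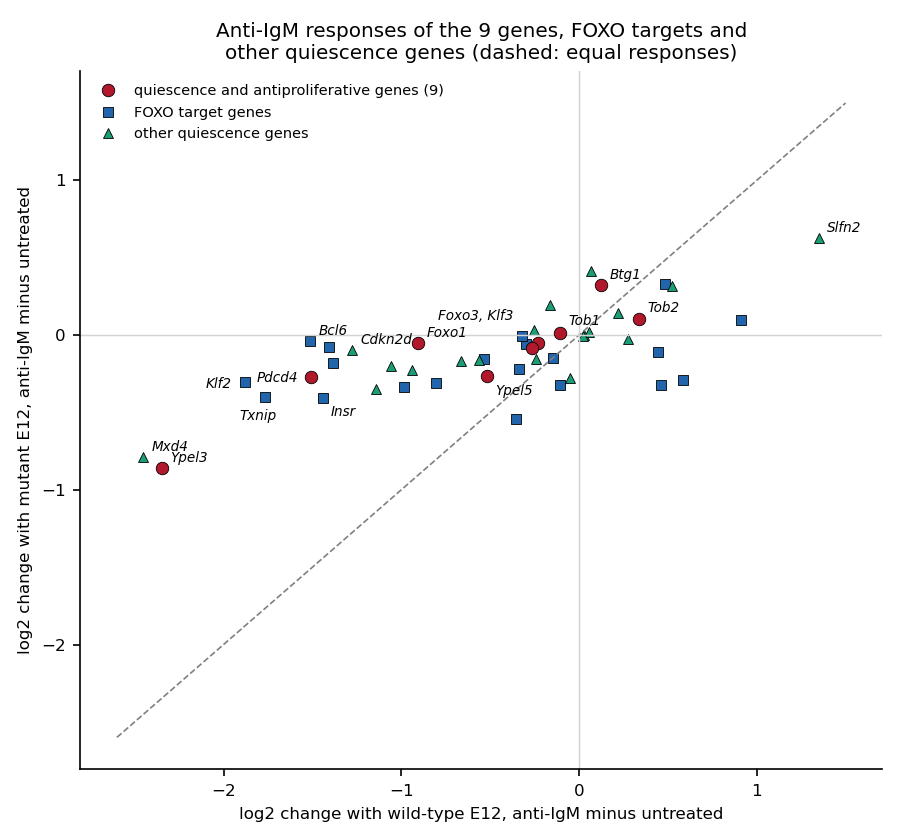
Log2 change after anti-IgM with mutant E12 (y axis) and with wild-type E12 (x axis) for the 9 tested genes (red circles), FOXO target genes (blue squares) and other quiescence genes (green triangles), each a mean difference of 3 against 3 arrays. The dashed line marks equal responses; Ypel3, Mxd4, Klf2, Txnip, Bcl6 and Pdcd4 lie far left and well above it, with mutant changes between -0.86 and -0.039.

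Of 11 tested genes that drive division, 0 were called in mutant E12 cells, where 0 had an unadjusted p under 0.05. In wt E12 cells 3 rose and 2 fell, against 15.1% and 16.2% of all genes. Myc, a driver of cell growth, rose by 1.64 ± 0.22 (adjusted p = 6.37e-05), Ccnd2 by 0.99 (adjusted p = 0.00125) and Cdk4 by 0.90 (adjusted p = 0.0219), while the cyclin gene Ccnd3 fell by 1.21 (adjusted p = 9.63e-05). The difference of responses was -1.56 ± 0.31 for Myc (adjusted p = 0.00847), -0.95 for Ccnd2 (adjusted p = 0.0485) and 0.97 for Ccnd3 (adjusted p = 0.0245). Of 11 tested immediate early and handling genes, 0 were called in mutant E12 cells, 3 at an unadjusted p under 0.05. With wt E12 2 rose, against 15.1% of all genes: Atf3 by 1.31 (adjusted p = 5.72e-05) and Junb by 0.74 (adjusted p = 0.000961).

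The genes whose levels ran most alike with each member over the 12 arrays were found by Pearson's r among the other tested genes. For Ypel3 they were Rab3a and Casp2 (r = 0.964 each), for Pdcd4 Cdk19 (0.975) and Ssbp3 (0.974), for Foxo1 Casp9 (0.956) and Fhod1 (0.943), and for Ypel5 Osbpl2 (0.936) and Vrk3 (0.929). For Btg1 they were Limd1 (0.990) and Gramd4 (0.988), for Tob2 Supt5 (0.986) and Foxp1 (0.985), and for Klf3 Socs5 (0.982) and Aftph (0.979). For Foxo3 they were Zc3h4 (0.981) and Cmpk2 (0.949), and for Tob1 Cybb (0.909) and Ccdc3 (0.879). The arrays fall into 4 groups, so these values describe shared group patterns and carry no test.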

How the data were processed

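RNA from 12 samples was measured on Illumina bead arrays. The values used are the authors' deposited probe intensities, on a linear scale. Negative values show that background had been subtracted, and equal medians show normalization (6.93 or 6.94 on each wt E12 array, 6.40 on each mutant E12 array), done apart for each form of E12. How this was done is not given in the sources used here. Raw signals were not used, since their 12 columns match no sample label, so the planned neqc step was replaced.

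A quantile step over all 12 arrays was followed by log2(value + 50), which shrinks changes of dim probes. The limit of detection, at a normal p of 0.01 from the values below 0, was 12.9 on wt arrays and 15.6 to 15.7 on mutant arrays. Probes above it on at least 3 arrays were kept (19715), and the brightest probe per gene gave 10050 genes. Symbols came from the platform annotation. Of all probes, 34885 had 1 symbol, 18 had several and 10378 had none. For the members, a fold against a group at background is a bound computed from the lowest signal above the limit. Tests used limma 3.58.1 in R 4.3.3 (lmFit, eBayes, two-sided) with 4 group means in 1 fit, checked on simulated data. P-values were adjusted by Benjamini-Hochberg within each of 5 comparisons at 0.05, and the number of arrays limits the precision. The fit had 8 residual and 6.25 prior degrees of freedom. Alternatives changed the scaling, offset, filter, probe rule, weights, block and arrays used.

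Deviations from group means correlated over genes at 0.289, 0.177 and 0.185 for same-numbered wt samples, against -0.245 to 0.153 for differently numbered ones. For mutant samples they correlated at 0.608, -0.046 and 0.547, against -0.757 to 0.491. Whether the numbers mark pairs is not known. The main fit assumed no pairs, and a block within form was run as an alternative. The members and gene lists were chosen with earlier results of these data known. Named from each other list were up to 4 genes with the largest change past the threshold in wt E12 cells, or, failing any, the 2 of smallest p. Il7r and Sod2 were named besides, as the FOXO targets that rose there. Counts at an unadjusted p are given without the share over all genes.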

Additional observations from a re-analysis of the deposited data

Results flagged for a closer look

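The anti-IgM responses of 3 genes differed between the forms of E12 by the interaction term of limma over 10050 genes, given here as the mutant response minus the wt response. For Ypel3 the difference was 1.49 ± 0.30 (SE; adjusted p = 0.00934), with a response of -0.86 in mutant and -2.35 in wt E12 cells. For Pdcd4 it was 1.23 ± 0.22 (adjusted p = 0.00542), with a response of -0.27 in mutant and -1.51 in wt E12 cells. For Foxo1 it was 0.85 ± 0.23 (adjusted p = 0.0380), with a response of -0.051 in mutant and -0.90 in wt E12 cells. The Foxo1 call was lost without 9 of the 12 arrays taken singly and under 4 other settings (adjusted p = 0.0754 to 0.144).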

How the results depend on the processing

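The 4 wt responses stayed called under every alternative run, as did the differences of responses of Ypel3 and Pdcd4. Counts of called members stayed within 4 and 4 for the wt response when any 1 array was left out, 0 and 1 for the mutant response, 4 and 5 for mutant minus wt untreated, 4 and 6 with anti-IgM, and 2 and 3 for the difference of responses. The mutant response had 2 members called with array weights (Btg1 0.69, Ypel3 -0.84) and 1 with the replicate block within each form (Ypel3 -0.86, adjusted p = 0.00421), against 0. The block changed no other member call in the anti-IgM responses. Signs turned for values near 0 that were not called: the mutant responses with array weights of Foxo1 (0.062), Foxo3 (0.11) and Tob1 (-0.044), that of Tob2 with the mean of probes (-0.025), untreated Foxo3 with a common median (-0.064), untreated Ypel5 with the mean of probes (-0.21), and the differences of Btg1 with the mean of probes (-0.11) and of Tob2 with array weights (0.11). Untreated Pdcd4 turned to 0.29 on the deposited values and 0.091 with a common median, and the called untreated Ypel3 to 0.065 on the deposited values. Leaving out any 1 array, the mutant response ran from -0.17 to 0.070 for Foxo1, from -0.14 to 0.10 for Foxo3 and from -0.13 to 0.087 for Tob1, untreated Foxo3 from -0.0026 to 0.23, and the difference of responses from -0.055 to 0.31 for Klf3, from -0.055 to 0.41 for Btg1 and from -0.025 to 0.19 for Tob1. The cause was not tested. Over all genes the mutant response had 23 calls, but 49 on the deposited values, 48 with a common median, 11 with an offset of 16, 37 without a filter, 717 with array weights, 215 with the block within form and 7 with its own arrays alone. The wt response had 3148, against 5196 with array weights. The difference had 698, against 385, 426 and 463 on the deposited values, with a common median and with an offset of 16, and 2327 and 1402 with array weights and the block. Left-out arrays gave 2 to 57 calls for the mutant response and 373 to 809 for the difference. Signal limits Btg2 and the mutant arrays of Klf3, which are at background. It also limits Foxo3, the second Ypel3 probe and the dimmest Pdcd4 probe, which are dim. The second probes of Btg1, Pdcd4 and Ypel5 are not dim.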
